A study of Mus musculus with 2 samples.

Results

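Foxp4 is a forkhead transcription factor that can pair with its relatives Foxp1 and Foxp2. The part of its binding map described here is the set of peaks inside the first intron of a gene and outside annotated repeats. They lie away from the nearest start site given in the peak annotation. Members were taken from the deposited peak list by 3 conditions set on the annotation and not on peak strength. The peak had to be annotated to intron 1 of a transcript, to lie more than 1000 bp from the nearest start site and to carry no repeat annotation. This gave 323 of 3317 peaks (9.74%, exact 95% binomial interval 8.75 to 10.8), in 277 host genes. The 613 peaks that met the same distance and repeat conditions in intron 2 or beyond served for comparison.

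The peaks came from 1 ChIP-seq library, made by sequencing the DNA pulled down with a Foxp4 antibody. Cells came from inguinal white fat of C57BL/6 mice (iWAT) and belonged to its stromal vascular fraction (SVF), a mixed population that contains the progenitors of fat cells. They were grown to confluence in culture and then kept for 2 days in induction medium that starts their differentiation toward beige adipocytes (insulin, isobutylmethylxanthine, dexamethasone, T3 and troglitazone). The series holds 2 samples, this library and an input DNA library that was not analysed here. Age and sex are not given in the sources used here, nor is the number of animals. With 1 library there is no replicate error and no test between conditions. Read depth is unknown. Intervals cover counting error over peaks or genes of this library and treat them as independent, although peaks in the same gene share their source.

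The first intron is the stretch that is spliced out between the first and second exons, and in mammals it is often the longest intron of a gene. It commonly holds enhancers, DNA elements to which transcription factors bind and which act on the promoter nearby, and it can also hold the start sites of shorter transcripts. An intron number belongs to 1 annotated transcript, so intron 1 of a long transcript can lie upstream of a second start site of the same gene. Forkhead proteins recognise DNA with a core of TGTTT followed by further preferred bases, most often written TGTTTAC.

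A reference table of RefSeq start sites (GRCm38.p6, the assembly behind mm10) gave the sequence around 32851 starts, of which the 250 bases before each start are used here. For the count of overlaps alone, the 50 bases after the start were included too. By this count 1 member overlapped a start (0.310%, 0.00784 to 1.71), against 201 of all 3317 peaks (6.06%, 5.27 to 6.93). The distance condition itself produces this difference in part, and nothing is read from it. That member, with a score of 94, lay in intron 1 of a non-coding transcript of 1810058I24Rik, just before another RefSeq start of that gene. Start sequences covered 208 of the 277 host genes, and hosts without one could not be counted. Among the covered hosts, a further 4 had the start stretch under a peak other than the member, with at least 20 bases shared. Shown here are the bases under the 1 member whose sequence is known, and those under the start-site peaks of Slc10a6 and Il1r1, a bile acid transporter family gene and the gene of the highest-scoring member. Sequences are RefSeq GRCm38.p6, 5′ to 3′ on the strand of the gene, and capitals mark TGTTT or its complement AAACA.
1810058I24Rik, chr6:35256792-35256990, plus strand: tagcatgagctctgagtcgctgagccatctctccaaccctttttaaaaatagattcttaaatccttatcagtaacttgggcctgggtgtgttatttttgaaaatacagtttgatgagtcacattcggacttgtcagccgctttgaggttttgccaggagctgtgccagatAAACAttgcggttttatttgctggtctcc
Slc10a6, chr5:103629404-103629653, minus strand: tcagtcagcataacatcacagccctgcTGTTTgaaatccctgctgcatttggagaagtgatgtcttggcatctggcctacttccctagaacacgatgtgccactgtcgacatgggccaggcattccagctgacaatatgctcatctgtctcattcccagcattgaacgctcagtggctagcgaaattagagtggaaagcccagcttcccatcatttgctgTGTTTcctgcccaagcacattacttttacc
Il1r1, chr1:40224969-40225079, plus strand: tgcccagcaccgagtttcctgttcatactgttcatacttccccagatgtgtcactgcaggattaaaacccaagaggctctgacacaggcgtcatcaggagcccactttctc

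The 199 bases of the 1810058I24Rik member held 1 core and the 250 bases of Slc10a6 held 2. The 111 bases of Il1r1 held none. On either strand the core occurs in 38.1%, 46.4% and 22.4% of all 32851 start stretches cut to these lengths, so its presence or absence is a description of the letters only. None of the 3 stretches held TGTTTAC or TGTTTGC, longer forms that both contain the core and which occur on either strand in 3.17% and 4.30% of all 250-base stretches. Among the 302 start stretches of host genes, 3.97% held TGTTTAC and 3.64% TGTTTGC. The core itself was in 36.8% of the host gene stretches, against 46.4% of all starts. The sequence of the other members was not used here.

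The first intron held more peaks than any later one. Of the 936 intronic peaks that met the distance and repeat conditions, 34.5% (31.5 to 37.7) lay in intron 1, 154 in intron 2, 95 in intron 3 and 66 in intron 4. Each intron up to the ninth, which held 15 peaks, had fewer than the one before it. The order broke after that, with 33 peaks in intron 10, 14 in intron 11 and 20 in intron 12. The share of peaks in intron 1 depended on the number of introns in the host transcript. It was 48.3% (39.1 to 57.6, 58 of 120 peaks) for transcripts with 2 to 4 introns, 33.9% (27.9 to 40.2, 82 of 242) for 5 to 9, 31.7% (26.6 to 37.2, 99 of 312) for 10 to 19 and 27.3% (21.9 to 33.4, 67 of 245) for 20 or more. A further 17 members lay in transcripts with 1 intron. If every intron of a transcript had held the same number of peaks, the shares in these classes would have been 36.8%, 14.7%, 7.62% and 3.57%. Each of these values lay below the interval of its class. Intron lengths were not used here, so a longer first intron and a higher density of peaks in it cannot be told apart.

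**Figure D1:**
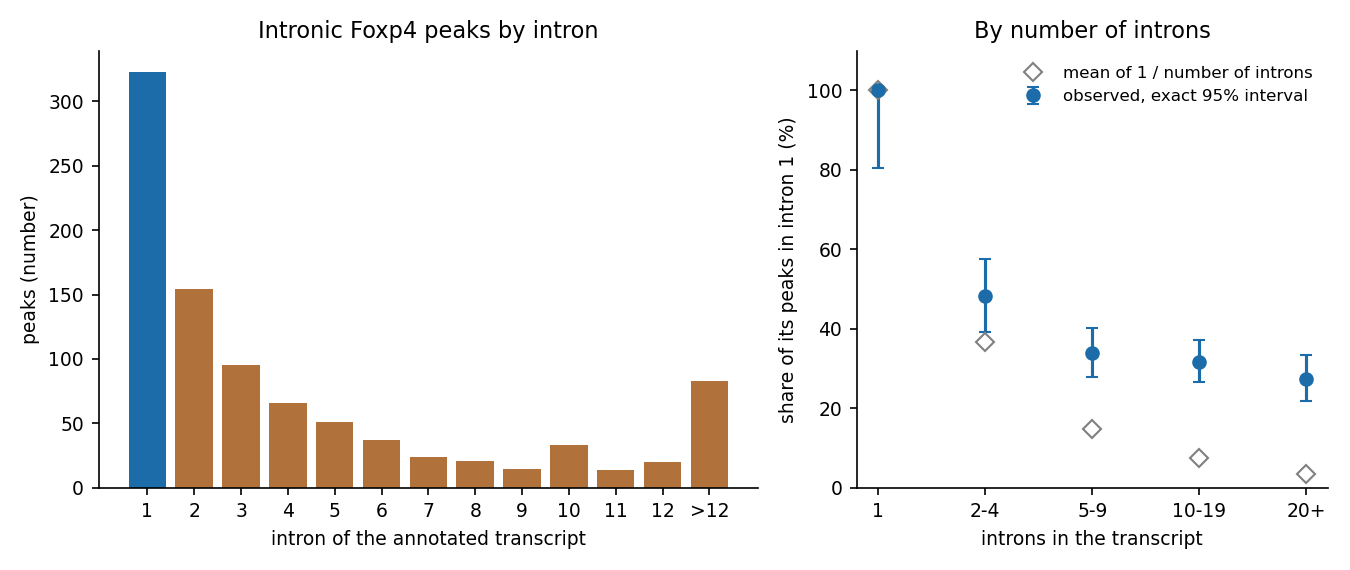
The left panel counts intronic Foxp4 peaks (bars, number) by the intron of the annotated transcript, with intron 1 in blue; the right panel gives the share of peaks in intron 1 (percent, points with exact 95% intervals) by the number of introns in the transcript, beside the mean of 1 divided by that number (diamonds). Intron 1 held 323 peaks and intron 2 held 154, and in transcripts with 20 or more introns 27.3% of peaks lay in intron 1 against 3.57% for introns of equal standing.

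The hosts were long genes. Their median length was 98.1 kb (quartiles 48.0 to 216), against 17.1 kb for the 21900 protein-coding genes of the reference table and 132 kb for the 509 hosts of later-intron peaks with a known length. Both sets of hosts include long non-coding RNA genes, which the reference median leaves out. Of all protein-coding genes, 255 hosted a first-intron member (1.16%) and 477 a later-intron peak (2.18%). Both shares climbed with gene length. The share with a first-intron member was 0.0756% of 7939 genes up to 10 kb long, 0.621% of 9016 genes of 10 to 50 kb, 2.38% of 2516 genes of 50 to 100 kb, 4.24% of 1439 genes of 100 to 200 kb and 7.27% (5.73 to 9.07) of 990 longer genes. For later introns the same series ran from 0.101% to 17.9% (15.5 to 20.4). Counts for gene lists are given with the median length of the listed genes. Protein-coding genes hosted 299 of the members and long non-coding RNA genes 24, with median scores of 62 and 75.

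**Figure D2:**
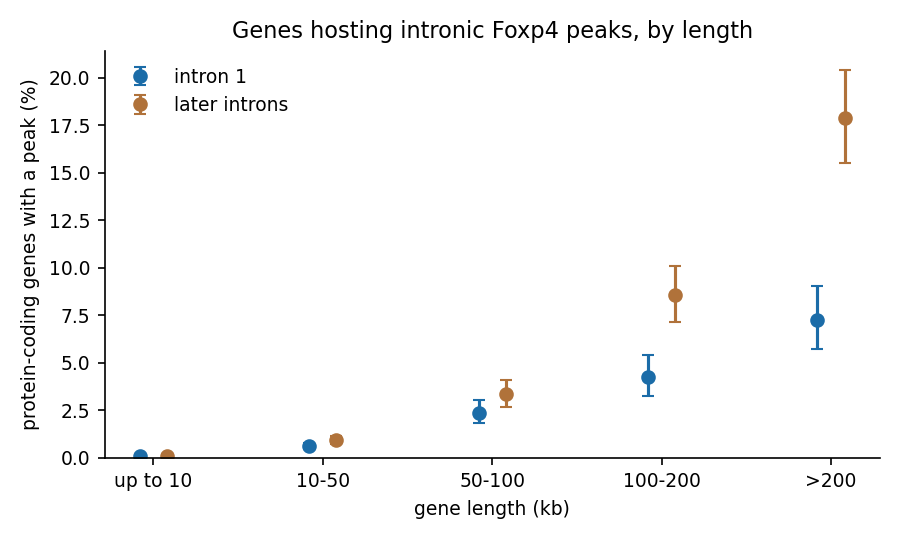
Points give the share of protein-coding genes (percent, with exact 95% intervals) that host a Foxp4 peak in intron 1 (blue) or in later introns (brown), by gene length in kb. The share with a first-intron peak was 0.0756% among genes up to 10 kb and 7.27% among genes over 200 kb.

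Members lay closer to start sites than later-intron peaks. Their median distance was 14.4 kb (quartiles 4.97 to 37.8, lowest 1.02 and highest 420 kb), against 45.1 kb (18.2 to 92.0) for later introns. Intron 1 begins near the start of its transcript and the rule used this distance, so this is a description and no finding. Within 5 kb of a start site lay 82 members (25.4%) and 37 later-intron peaks (6.04%), and beyond 100 kb lay 23 (7.12%) and 138 (22.5%). The 3 intron 1 peaks just inside the 1000 bp limit were those of Klf15 (1016 bp, score 141), Galm (1029 bp, score 52) and Iscu (1039 bp, score 192). Just outside it, and so no members, were those of Lzic (974 bp, score 93), Clk1 (967 bp, score 51) and Plekhf1 (950 bp, score 972). Before the conditions were applied intron 1 held 471 peaks, of which 50 lay within the limit (median score 66) and 98 beyond it carried a repeat (median score 69).

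Most members were nearest to the start of the gene that contains them. This held for 292 of 323 (90.4%, 86.7 to 93.4), against 390 of 613 later-intron peaks (63.6%, 59.7 to 67.4). The position of intron 1 in the gene bears on this contrast too, which is given as a description. In 46 members (14.2%, 10.6 to 18.5) the nearest start lay downstream of the peak, written as a negative distance, and in 28 of these it was another start of the same gene. Bcl6 was one of these. Its member lay at -2.22 kb from one start and 5.35 kb downstream of the outermost RefSeq start. The other 18 pointed to a different gene. One was the member in intron 1 of Col4a1, a basement membrane collagen gene, which lay at -34.8 kb from the nearest start, that of its neighbour Col4a2.

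Members scored about as high as the list as a whole. Each peak carries a whole-number score from the authors' processing, the only measure of strength used here. Members had a median score of 65 (quartiles 37.5 to 94, lowest 14 and highest 583), and the median of all 3317 peaks was also 65. Later-intron peaks had a median of 61 (40 to 100, lowest 15 and highest 1145). The share at or above the median of all peaks was 50.2% (44.6 to 55.7) for members and 47.3% (43.3 to 51.3) for later introns. A score of at least 200 was reached by 19 members (5.88%, 3.58 to 9.03) and 48 later-intron peaks (7.83%, 5.83 to 10.2). Median widths were 396 bp in both classes. Across peaks score and width went together to a similar degree (Spearman correlation 0.36 over 323 members, 0.41 over 613 later-intron peaks), a description of peaks from the same library.

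Within bins of distance to the nearest start of any gene, neither class had the higher median score throughout. That start was another gene's for 31 members and 223 later-intron peaks, so distance inside the host gene was not matched. Between 1 and 5 kb the medians were 69 (82 members) and 80 (37 later-intron peaks), between 5 and 10 kb 52.5 and 65, and between 10 and 25 kb 65.5 and 62. Between 25 and 50 kb they were 70 and 64, between 50 and 100 kb 56 and 61, and beyond 100 kb 65 and 55. Members had the lower median in 3 of the 6 bins. In every bin the intervals of the share at or above 65 overlapped between the classes. The widest gap was in the first bin, with 53.7% (42.3 to 64.7) of members and 67.6% (50.2 to 82.0) of later-intron peaks.

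**Figure D3:**
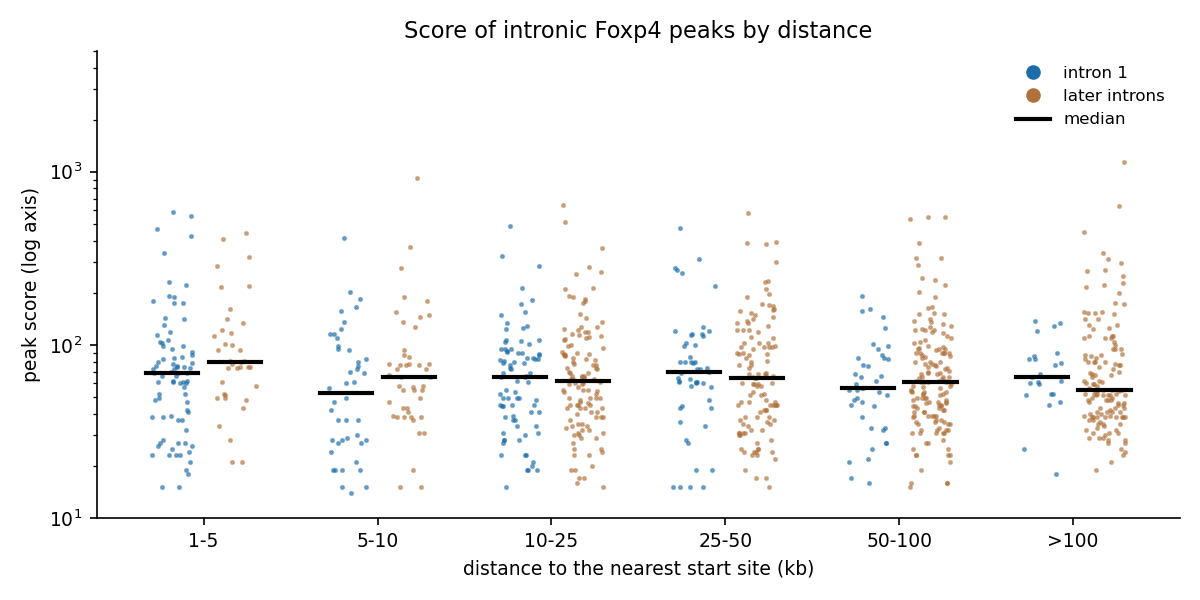
Each point is 1 intronic Foxp4 peak, plotted by its score (log axis) within bins of distance to the nearest start site (kb), for intron 1 (blue) and later introns (brown); black bars are medians. Median scores lay between 52.5 and 70 for intron 1 and between 55 and 80 for later introns, and the point clouds overlapped in all 6 bins.

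CpG islands, stretches rich in CG dinucleotides that often mark start sites, were annotated at 7 members (2.17%, 0.876 to 4.41). Of the 613 later-intron peaks 0 had this annotation, with an exact interval of 0 to 0.60% (3 counts of the total, the limit that a count of 0 allows, would be 0.489%). The 7 lay in Bcl6 (score 426), Klf15 (141), Ing2 (107), Klf13 (84), Nfia (49), 4931414P19Rik (37) and Fst (25). They included a peak 1.02 kb from a start, at Klf15, and one at -19.7 kb from the start of a neighbouring gene, at Klf13. The share over all 3317 peaks was not computed. Later-intron peaks lay farther from start sites, so these counts are not read as a difference between first and later introns.

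The highest-scoring member lay 1.11 kb inside Il1r1, the gene of the receptor for interleukin-1 (score 583, chromosome 1, 40225867 to 40226514). A second member in the same intron scored 24, a ratio of 24.3 between them and the widest of any host. The peak over the start of the gene, no member, scored 19. Next came Arid3a, an AT-rich-interaction-domain factor, with 553 at 1.17 kb (chromosome 10, 79928248 to 79928774). Nfe2l2, which encodes the regulator of the oxidative stress response NRF2, had a member of 466 at 1.16 kb in the intron of a non-coding transcript. These 3 members all lay close to the 1000 bp limit of the rule.

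The others of the 12 highest lay at various distances. Pfkfb3, which makes the activator of the glycolytic enzyme phosphofructokinase-1, had a member of 483 at -11.2 kb from its nearest start and 40.6 kb inside the gene. Creb5, a cAMP-response-element binding factor and one of the listed progenitor markers, had one of 474 (chromosome 6, 53603281 to 53604023). It lay 30.3 kb from the nearest start of Creb5 and 316 kb inside the gene from its outermost RefSeq start. Bcl6, a transcriptional repressor, had 426 at -2.22 kb, and Fgf2, a growth factor that keeps progenitors dividing, had 416 at 6.22 kb. Adam12, a metalloprotease gene active in mesenchymal cells, had 313 at 47.8 kb. Also among the 12 were Alkbh5, an RNA demethylase gene (339 at 2.13 kb), 1700012B07Rik (327 at 10.3 kb) and Rai1 (285 at -12.2 kb). The lowest scores were 14 in Nepn and 15 in several genes, among them Gm11351 and Plcxd2.

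Some genes held several members. Of the 277 hosts 239 had 1, 31 had 2, 6 had 3 and 1, Foxp1, had 4. Thus 38 hosts (13.7%, 9.89 to 18.3) had more than 1, and 84 members (26.0%, 21.3 to 31.2) shared a host. For later introns 70 of 510 hosts (13.7%, 10.9 to 17.0) had more than 1. Within the 38 genes the closest pair lay a median of 13.4 kb apart (1.07 to 131 kb), and 14 genes had a pair within 10 kb. The highest score of such a gene was a median of 2.05 times its lowest. Another peak of any class lay within 10 kb of 49 members (15.2%, 11.4 to 19.6) and of 66 later-intron peaks (10.8%, 8.43 to 13.5), with overlapping intervals.

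Foxp1, which encodes a relative and binding partner of Foxp4, had its 4 members in intron 1 of the same annotated transcript. The strongest lay 11.7 kb inside the gene (score 105, chromosome 6, 99509035 to 99509496). The others formed a group 73.8, 77.2 and 81.1 kb inside it, with scores of 45, 42 and 28. From the nearest start, which is another start of Foxp1, these lay at -11.8, -8.44 and -4.50 kb. No member lay in or nearest to Foxp2, Foxp4, Pparg, Ebf1, Ebf2, Zbtb16, Ror2, Pdgfra, Tead1, Runx1, Zeb2, Tcf4 or Meis1.

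The 6 genes with 3 members each were of mixed function. Ddr2, a receptor kinase that is activated by fibrillar collagen, had scores of 79, 109 and 65 at 1.15, 7.13 and 24.5 kb. Svep1, a large extracellular matrix protein gene, had 116, 38 and 45 at 5.18, 17.0 and 21.4 kb. Fmnl2, a formin that builds actin filaments, had 116, 48 and 83 at 29.8, 37.3 and 155 kb. In Ddr2 the highest score was at the middle peak, and in Svep1 and Fmnl2 at the one nearest the start. Me3, a mitochondrial malic enzyme gene, had 115, 65 and 53 at 43.7, 67.2 and 88.1 kb. Rnf150, a ring finger gene, had 157, 56 and 49 at 7.82, 73.7 and 76.6 kb. Cadm2, a cell adhesion gene, had 17, 134 and 59 at 95.6, 227 and 544 kb. Thus Me3 and Rnf150 also had their highest score nearest the start, and Cadm2 did not.

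**Figure D4:**
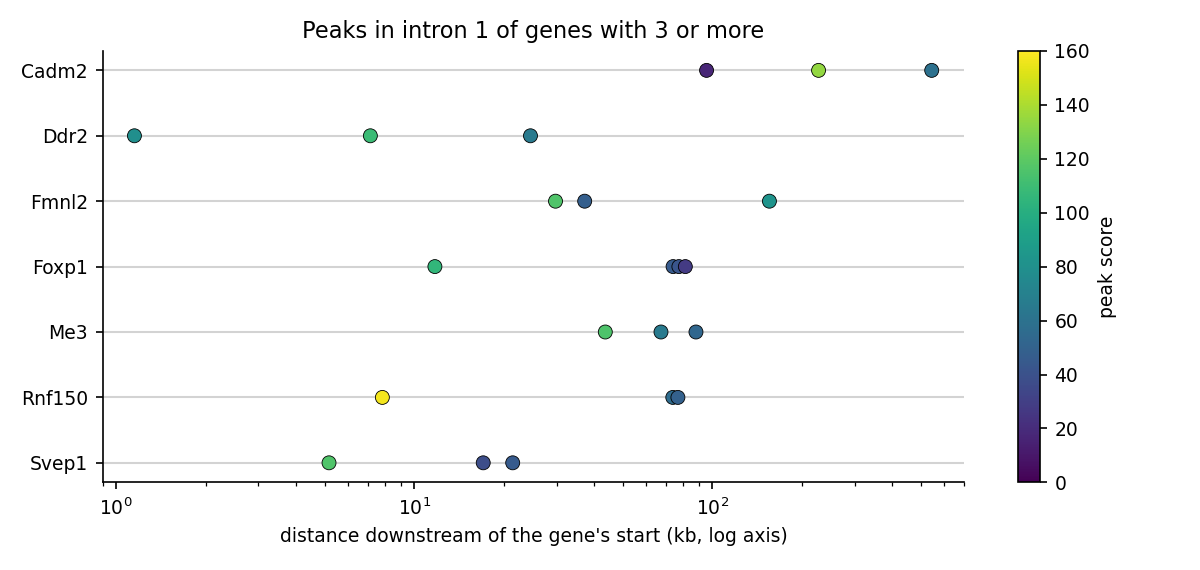
Each point is a first-intron Foxp4 peak of a gene with 3 or more, placed by its distance inside the gene from the outermost RefSeq start (kb, log axis; for Rnf150 from the nearest start in the peak annotation) and coloured by score. Foxp1 has 1 peak at 11.7 kb with a score of 105 and 3 between 73.8 and 81.1 kb with scores of 28 to 45.

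First and later introns of the same gene were both occupied in 40 genes, which are 14.4% (10.5 to 19.1) of the hosts of members and 7.84% (5.66 to 10.5) of the hosts of later-intron peaks. The first-intron peak had the higher score in 18 of these genes and the later one in 22. Fgf2 had 416 in intron 1 and 283 in intron 2, and Bicc1, an RNA-binding protein gene, had 272 and 213 in intron 1 and at most 125 in later introns. The order was the other way in Abca1, a cholesterol exporter gene, with at most 99 in intron 1 and 237 in intron 6. It was so too in Nfia, with at most 60 in intron 1 and 228 in intron 2.

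To place the members among known pathways, 18 gene lists with 730 genes were used. Of these genes 44 hosted a member and 77 a later-intron peak. Over all hosts the median of the highest score per gene was 69 for first introns and 66 for later ones. Counts below are read against the 1.16% of all protein-coding genes that hosted a member, and against the length of the listed genes. No list was tested, and none is called particular to first introns.

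Regulators of fat cell formation hosted members in 4 of 41 genes (9.76%, 2.72 to 23.1; median gene length 81.8 kb), with a median highest score of 80. Klf15, a Kruppel-like factor induced during adipogenesis, had 141 at 1.02 kb and 69 at 3.69 kb. Tshz2, a zinc finger gene, had 99 at 66.6 kb, and the nuclear receptor gene Rora had 61 and 21. Nfia, a nuclear factor I gene, had 60 at -2.13 kb and 49 at -5.23 kb, both upstream of another start of the gene. Later introns held peaks in 9 of the 41, Nfia among them, with a median highest score of 42.

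Genes induced by glucocorticoids hosted members in 2 of 30 (6.67%, 0.818 to 22.1; median gene length 13.3 kb). These were Klf15 and Sgk1, a kinase gene, with a member of 126 at 41.4 kb. Later introns also held peaks in 2. Of the 24 clock genes (median length 32.0 kb) 1 hosted members, again Rora.

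Among 72 further developmental and signal-dependent transcription factors, long genes with a median of 127 kb, 6 hosted a member (8.33%, 3.12 to 17.3) and 10 a later-intron peak. No gene was in both sets. Over all hosts of members only 14.4% also had a later-intron peak, so this is not read as a separation. The 6 with a member were Fosl2, a subunit of AP-1 (179 at 3.20 kb), Mitf (101), the retinoic acid receptor gene Rarb (65), Hivep3 (55), Zfhx4 (55) and Creb3l2 (44). Their median of 60 lay near the 69 of all hosts. Of 39 forkhead genes (median length 6.61 kb) 1, Foxp1, hosted members and 3 (Foxk1, Foxn3 and Foxo3) a later-intron peak.

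Extracellular matrix and adhesion genes hosted a member in 8 of 69 (11.6%, 5.14 to 21.6; median gene length 87.7 kb) and a later-intron peak in 17, with 3 genes in both. Adam12 was the highest. The laminin chain gene Lama4 had 112 at 29.6 kb, Col4a1 had 102 and the laminin chain gene Lamc1 had 84 at 14.4 kb. These last 3 encode proteins of the basement membrane, the sheet that surrounds each mature fat cell. The other 4 were Hmcn1 (60), the integrin gene Itgb5 (28), Col5a3 (26) and the protease inhibitor gene Timp2 (15).

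TGF-beta and BMP signalling hosted a member in 5 of 58 genes (8.62%, 2.86 to 18.98; median gene length 40.1 kb) and a later-intron peak in 4. By role, the ligand gene Bmp6 had 27, the receptor genes Tgfbr3 and Tgfbr2 had 56 and 31, and the secreted inhibitor gene Fst had 25. The median of the 5, 31, was below the 69 of all hosts. Wnt signalling (median gene length 37.6 kb) hosted members in 2 of 62, the Wnt5a receptor family gene Ror1 (62 at 146 kb) and Daam1 (47), and a later-intron peak in 4.

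Among 54 genes of insulin, IGF and growth factor receptor signalling (median length 67.3 kb), 2 hosted a member, Fgf2 among them, and 7 a later-intron peak. Of 51 genes of cAMP signalling (median length 93.1 kb) 4 hosted a member. These were the kinase gene Sik3 (83), the anchoring protein gene Akap13 (59 and 28), the cAMP-regulated exchange factor gene Rapgef4 (31) and the phosphodiesterase gene Pde3a (29). Their later introns held peaks in 3.

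Of 36 thermogenic and beige genes 0 hosted a member, with an upper interval bound of 9.74%, and 2 (Ebf2 and Esrrg) had a later-intron peak. Of 41 genes of lipid storage and lipolysis 1 did, Lpin2, a phosphatidate phosphatase gene, with a score of 19, and 1 had a later-intron peak. The median gene lengths of these lists were 20.2 and 26.4 kb. With 1.16% of all protein-coding genes as hosts, the counts of 0 and 1 are not read as a difference. Of 37 markers of progenitors and fibroblasts (median length 35.9 kb) 1, Creb5, hosted a member and 7 a later-intron peak, and the intervals of these shares (0.0684 to 14.2% and 7.96 to 35.2%) overlapped. Markers of other cells that the stromal fraction can contain had 0 of 24 (macrophages and other immune cells), 0 of 20 (endothelium), 1 of 15 (smooth muscle and pericytes, Rgs5, score 49) and 0 of 15 (mesothelium and epithelium). The median gene lengths of these 4 lists were 13.7, 39.5, 34.8 and 7.63 kb. A peak list does not show which cells of the mixture carried a site.

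**Figure D5:**
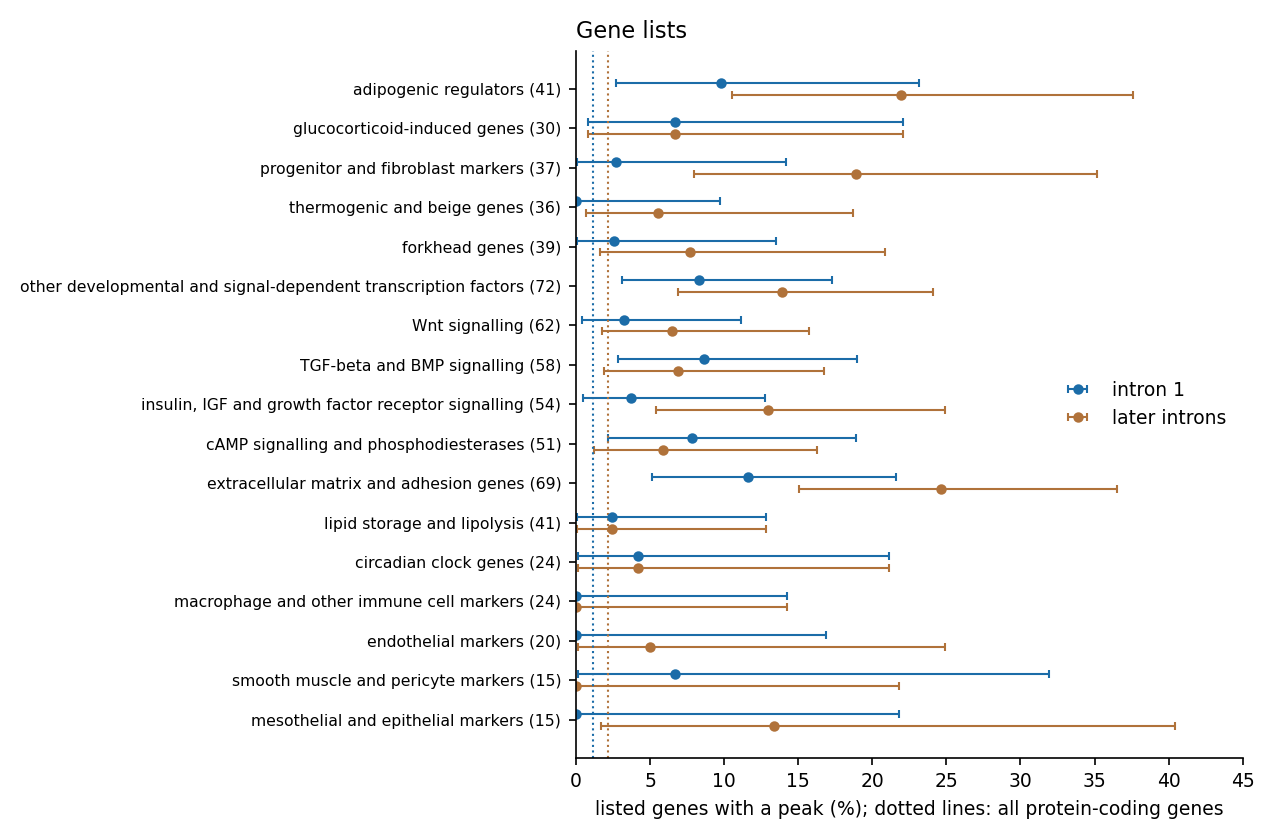
Points give the share of each plotted list's genes (percent, with exact 95% intervals; number of genes in parentheses) that host a Foxp4 peak in intron 1 (blue) or in later introns (brown), and dotted lines give the shares over all protein-coding genes, 1.16% and 2.18%. Among the lists plotted, the highest shares for intron 1 were 11.6% for extracellular matrix and adhesion genes and 9.76% for adipogenic regulators, and the intervals are wide.

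Members were spread over all 19 autosomes, with 8 on chromosome 19 and 25 each on chromosomes 1 and 2, and 5 lay on X. Chromosome 7 held 21 members and 20 later-intron peaks (6.50% and 3.26% of their classes), the only chromosome with more members than later-intron peaks. The X chromosome held 1.55% of members and 1.47% of later-intron peaks.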

How the data were processed

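The authors deposited, for the ChIP library, a list of peaks on mm10 with a whole-number score each, and, per the file headers, HOMER (annotatePeaks.pl) annotated the narrowPeak calls. Per the submitters' processing notes the tools included MACS2, Bowtie2, SAMtools, Picard and deepTools 3.3.0, with no role or setting for any. The meaning of the score and the use of the input in peak calling are not given in the sources used here. The score was used only to rank and describe peaks within this list. Positions, distances, intron numbers and repeats are those of the file.

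All 3317 peaks were read. The table also has 1 line without a peak, which was dropped. Host genes were found by transcript accession in a RefSeq table (GRCm38.p6), for 322 of 323 members, and the remaining one by its nearest-gene entry. RefSeq start sequences covered 208 of the 277 hosts. Shares have exact (Clopper-Pearson) 95% intervals, computed in Python 3.11.15 with pandas 2.3.3 and scipy 1.17.1. The rule and the intervals were tested on simulated data. No test between classes was made, since peaks of 1 library are not replicates.

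The members and gene lists were chosen with earlier results of these data known. Named are the 12 highest and 3 lowest members, genes with 3 or more, up to 4 genes per list with the highest scores, 14 genes looked up in every case, and peaks at the distance limit. The other genes of a list, those with peaks in both kinds of intron, the CpG island peaks, the later-intron hosts, the genes whose start sequence is shown and the TGTTT core were added after their values were seen. Alternatives covered repeats, the distance limit, score limits, coding transcripts and 1 peak per gene. Sequence of the peaks themselves was not analysed here, and 1 gene list and some single genes are not reported here.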

Additional observations from a re-analysis of the deposited data

How the results depend on the processing

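Of 33 alternative values of 5 shares, 30 stayed within the exact interval of the value as reported. The share of intronic peaks in intron 1 lay between 31.8% and 37.1% under its 7 alternatives. With peaks under a score of 30 left out, 62.1% of members scored at or above the median, as that filter requires. With peaks below the median score left out, 61.7% of members had at least the median width, and 15.4% shared a host with another member in place of 26.0%, since fewer members were left. No replicate could be left out with 1 library. No paired analysis was possible because 1 library gave the peaks. Limits are the single library, the unknown depth, the unstated meaning of the score, intron numbers that depend on the transcript chosen by the annotation, and intron lengths that were not used.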

Other observations

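Genes described in these paragraphs were singled out after their values were seen, and no test was made. They stand for no group of genes, since no list was set for them. Il10rb, a subunit of the interleukin-10 receptor, had a member of score 231 at 1.16 kb from its start. Tnfaip3, an inhibitor of NF-kappaB signalling, had one of 57, and Nod1, an intracellular sensor of bacterial cell walls, had 2 of 49 and 23. Ext1, a heparan sulfate polymerase gene, had members of 94 and 84, Ust, a sulfotransferase gene, had 55, Has2, a hyaluronan synthase gene, had 24 and Gpc6, the gene of a proteoglycan core protein, had 18.

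Members in 31 cases were nearest to the start of another gene, so an assignment by nearest start would move them. Examples are the 2 members of Klf13 (84 and 37, nearest to E030018B13Rik), the 2 of Ncam1 (56 and 32, nearest to Gm11149) and that of Bcl2 (51, nearest to Mir3473f).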
